A study of Mus musculus with 4 samples.

Results

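The 4 genes described here encode the constant regions of the mouse immunoglobulin light chains: Igkc for kappa, and Iglc1, Iglc2 and Iglc3 for lambda. They were chosen by symbol among the 32285 genes of the deposited tables, and all 4 were found. They were followed in 16788 B cells, out of 47169 kept cells of every kind, that were picked by the transcripts of 10 B cell marker genes, none of which is an immunoglobulin gene. The single-cell RNA libraries were made from female C57/Bl6 mice aged 6 to 8 weeks, from lungs and from blood, with 1 library for each tissue and arm. In the metastasis arm 800000 cells of B16F10, a mouse melanoma line, were put into the spleen on day 0. In the sham arm saline was injected there. The spleen was then taken out in both arms, and all mice also had 250000 B16F10 cells placed under the skin, so the sham mice carried a tumour too and no group had a spleen. Tissue was collected on day 7. Immune cells (CD45-positive) were enriched, lungs went over live/dead columns, and blood cells went through density centrifugation. How many mice stand behind each library is not stated in the labels, and lung and blood of an arm may come from the same mice.

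A mature B cell makes an antibody from a heavy chain and 1 kind of light chain. In mice the kappa locus is rearranged first as a rule, and lambda is used by a small minority of B cells, so that kappa is far more common in the blood. A light chain transcript joins a rearranged variable (V) segment to a constant segment. Iglv1 is usually joined to Iglc1 or Iglc3, and Iglv2 to Iglc2. Most B cells carry 1 productive light chain, which is called isotype exclusion.

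The coding parts of the 4 constant segments show which of these transcripts a short read can tell apart. The first 300 coding bases of each are given 5′ to 3′ from GENCODE M21 transcripts on the GRCm38 build, and capitals mark the positions at which the 3 lambda genes differ from each other in their alignment. Igkc, which was not part of that alignment, is in lower case throughout.
Igkc: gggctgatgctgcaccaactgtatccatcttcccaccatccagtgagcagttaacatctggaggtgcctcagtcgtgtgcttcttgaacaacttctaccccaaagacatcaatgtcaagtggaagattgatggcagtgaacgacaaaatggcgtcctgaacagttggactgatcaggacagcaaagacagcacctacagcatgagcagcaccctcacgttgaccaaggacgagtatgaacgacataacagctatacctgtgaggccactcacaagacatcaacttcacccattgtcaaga
Iglc1: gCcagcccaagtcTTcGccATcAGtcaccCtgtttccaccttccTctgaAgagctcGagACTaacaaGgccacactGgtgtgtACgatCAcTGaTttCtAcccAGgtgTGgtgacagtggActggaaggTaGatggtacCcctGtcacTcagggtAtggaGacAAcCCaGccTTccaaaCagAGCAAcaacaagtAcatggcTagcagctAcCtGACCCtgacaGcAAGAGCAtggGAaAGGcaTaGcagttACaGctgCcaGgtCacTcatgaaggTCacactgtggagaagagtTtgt
Iglc2: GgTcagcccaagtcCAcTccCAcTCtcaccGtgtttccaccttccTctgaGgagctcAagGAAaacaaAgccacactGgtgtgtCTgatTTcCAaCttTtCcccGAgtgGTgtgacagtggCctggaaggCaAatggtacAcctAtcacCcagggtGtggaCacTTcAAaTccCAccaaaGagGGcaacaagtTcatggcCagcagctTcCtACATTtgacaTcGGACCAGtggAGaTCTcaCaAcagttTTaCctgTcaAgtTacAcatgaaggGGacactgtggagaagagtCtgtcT
Iglc3: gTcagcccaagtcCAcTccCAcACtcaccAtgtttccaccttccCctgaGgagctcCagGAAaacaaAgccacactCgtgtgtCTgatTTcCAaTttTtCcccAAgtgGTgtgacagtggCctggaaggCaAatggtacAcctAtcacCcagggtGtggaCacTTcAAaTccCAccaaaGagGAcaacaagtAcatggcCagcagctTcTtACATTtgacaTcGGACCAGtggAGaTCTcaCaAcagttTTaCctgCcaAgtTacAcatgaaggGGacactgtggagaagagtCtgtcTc

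Igkc (ENSMUSG00000076609) lies on the + strand at chr6:70726435-70726966, with its coding part at 70726435-70726754, of which chr6:70726435-70726734 is printed, and the 3′ untranslated part behind it in the same exon. The lambda genes lie on the - strand of chromosome 16. Iglc1 (ENSMUSG00000105906) is annotated at chr16:19061618-19062071 with its coding part at 19061755-19062071, printed from chr16:19061772-19062071. Iglc3 (ENSMUSG00000105547) is next to it at chr16:19065230-19065681, coding at 19065368-19065681, printed from chr16:19065382-19065681. Iglc2 (ENSMUSG00000076937) is annotated at chr16:19198396-19200351, coding at 19198539-19198853, printed from chr16:19198554-19198853. The transcripts used are single exons of 532, 454, 458 and 452 bases for Igkc, Iglc1, Iglc2 and Iglc3, so their UMI counts (unique molecular identifiers, each counting 1 captured transcript) were compared with no correction for length.

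Iglc2 and Iglc3 were nearly the same gene by sequence. Their coding parts were identical at 303 of 315 aligned positions (96.2%), with the longest shared stretch at 79 bases, and their 3′ untranslated parts at 89.3%. Iglc1 matched Iglc2 at 73.4% and Iglc3 at 74.2% of coding positions. Igkc matched the lambda genes at 53.0% to 54.3% and shared no run over 8 bases with any of them. Read 2 had 151 bases, more than that stretch, so a full-length read lying wholly within the Iglc2 or Iglc3 transcript crosses a difference. Shorter matches need not. How the counting treated reads that match both genes was not tested, and the values of that pair are uncertain. Their sum, Iglc1 and Igkc are set apart by sequence.

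The libraries differed in depth and in red cell RNA. Each held 18115 to 36125 barcodes and 112079231 to 132540945 UMIs, and haemoglobin genes made up 43.7% to 78.6% of these. The gates held 2186 B cells in metastasis lung, 4785 in sham lung, 1758 in metastasis blood and 8059 in sham blood. Their median depth was 1802, 2377, 2465 and 3555 UMIs in that order, and 12.6%, 13.3%, 8.48% and 4.59% of them had at least 50% haemoglobin UMIs. Pairs of libraries shared 109 to 316 barcodes, and 2 to 14 barcodes of gated B cells. As a check of the gate, Cd79a was found in 94.2% to 98.7% of its cells over the libraries and Ebf1 in 96.1% to 99.1%, while the T cell gene Cd3e was found in 0.0457% to 0.409%. Every interval below is an exact 95% interval that covers counting error only. Those on UMIs treat the UMIs of a cell as independent, which they are not, and are too narrow. With 1 library per group no difference between arms or tissues has a replicate check.

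Igkc was the main light chain transcript of B cells in all 4 libraries. Its level in gated B cells was 7288 CPM (UMIs of the gene for each 1000000 UMIs of these cells) in metastasis lung, 7548 in sham lung, 8003 in metastasis blood and 8436 in sham blood. The 3 lambda genes together reached 2664, 2552, 4383 and 4286 CPM in the same order. Igkc was thus 2.74 and 2.96 times the lambda sum in the lung libraries and 1.83 and 1.97 times in the blood libraries, and lambda was the higher in blood in both arms.

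Among the lambda genes Iglc2 had the highest level in every library. Its CPM was 1138 (metastasis) and 1118 (sham) in lung, and 1855 and 1933 in metastasis and sham blood. Iglc1 followed with 1012, 947, 1604 and 1395 CPM, and Iglc3 with 515, 487, 923 and 958. The order Igkc, Iglc2, Iglc1, Iglc3 held in all 4 libraries. No 2 neighbouring genes had overlapping counting intervals in any of them, but these intervals leave out the spread between cells. Iglc1 was spread unevenly over cells. In sham blood its median was 2 UMIs per cell and its 95th percentile 34, while the median of Iglc2 was 6 and its 95th percentile 26. At least 1 UMI of any of the 4 genes was found in 98.9%, 99.2%, 99.4% and 99.7% of gated B cells.

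Variable segments were captured far less often than constant segments. All Igkv genes together gave 0.236, 0.287, 0.352 and 0.523 UMIs per gated B cell in metastasis lung, sham lung, metastasis blood and sham blood. Iglv1 gave 0.0220, 0.0253, 0.0461 and 0.0608 UMIs per cell. The cell's own light chain was therefore typed from the constant genes, and the V segments were kept as a separate check.

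A cell was typed if it had at least 10 light chain constant UMIs, which left 1719, 4142, 1602 and 7857 B cells in metastasis lung, sham lung, metastasis blood and sham blood. A cell with at least 90% Igkc was called kappa-dominant, one with at least 90% lambda was called lambda-dominant, and the rest were called mixed. Lambda-dominant cells were a small group everywhere. They made up 7.33% (6.14% to 8.67%) of typed cells in metastasis lung and 6.49% (5.76% to 7.29%) in sham lung. In blood they were 7.18% (5.96% to 8.55%) with metastasis and 5.66% (5.16% to 6.20%) in sham. The metastasis library had the higher share in both tissues, and the intervals of the arms overlapped in both.

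**Figure D1:**
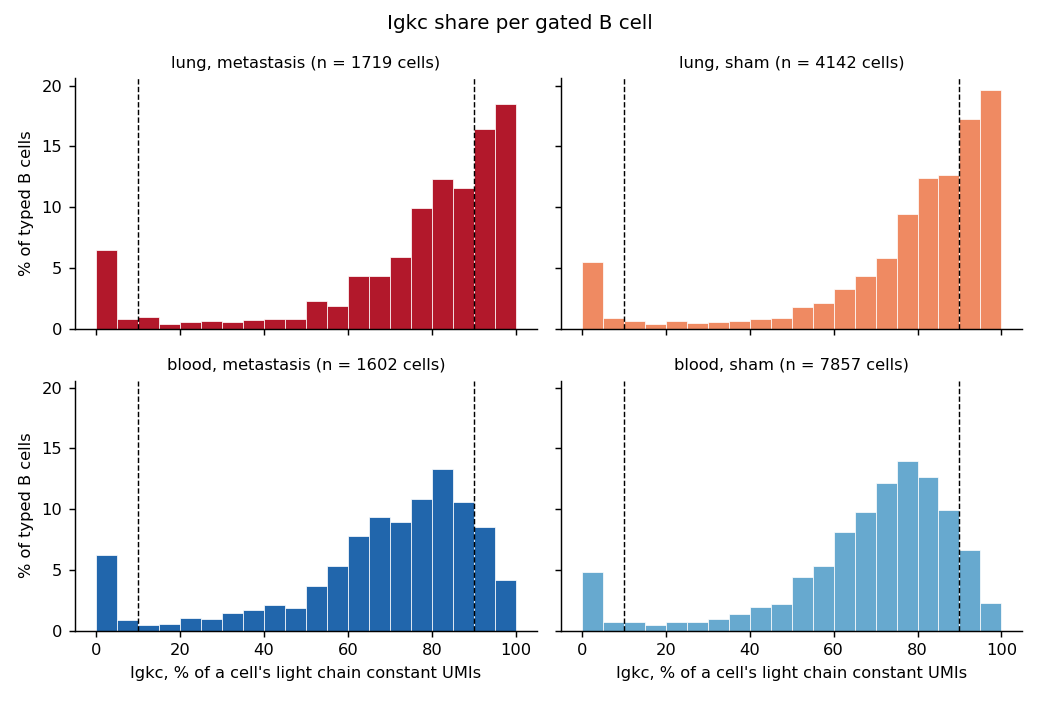
Histogram of the Igkc share of light chain constant UMIs (x axis, percent, bins of 5) over typed B cells (y axis, percent of cells) in each of the 4 libraries, with dashed lines at 10% and 90%. A narrow group sits near 0% in every library, and the broad group of kappa cells lies closer to 100% in lung than in blood.

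Most typed cells did not meet the 90% limit on either side. Mixed cells were 57.8% in metastasis lung, 56.7% in sham lung, 80.1% in metastasis blood and 85.4% in sham blood. Kappa-dominant cells were 34.8%, 36.8%, 12.7% and 8.92% in that order. In metastasis lung each step of 10 percentage points between 10% and 50% Igkc held 1.16% to 1.63% of typed cells, and the steps above rose from 4.13% at 50% to 60% to 23.9% at 80% to 90%. In sham blood the steps between 10% and 50% held 1.17% to 4.15%, and that at 70% to 80% held 26.1%. Cells near balance were more frequent in the blood libraries: the steps at 40% to 50% and 50% to 60% held 3.995% and 9.05% in metastasis blood and 4.15% and 9.75% in sham blood, against 1.71% and 3.86% in sham lung. The median Igkc share among cells with more Igkc than lambda was 86.3% in metastasis lung, 87.1% in sham lung, 77.6% in metastasis blood and 75.9% in sham blood. When every cell was given to the larger of its kappa and lambda counts, a rule added after the data were seen, 86.7%, 88.1%, 81.8% and 84.6% of typed cells had Igkc over 50%. These are called kappa-majority cells below.

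The mixed share was lower in lung than in blood at each setting tried. With each B cell thinned to 1000 UMIs outside haemoglobin and typed at 5 light chain UMIs, mixed cells were 56.3% (metastasis) and 56.2% (sham) in lung, 75.5% and 78.2% in blood. At a limit of 80% in place of 90% they were 32.5% and 30.6% in lung and 55.1% and 61.6% in blood, and at 95% they were 75.04%, 74.9%, 89.6% and 92.8%. Tissue and the different handling of lung and blood cannot be told apart. The median Scrublet doublet score of mixed cells was 0.0886, 0.0671, 0.105 and 0.109 in metastasis lung, sham lung, metastasis blood and sham blood, against 0.0948, 0.0671, 0.0990 and 0.0969 in kappa-dominant cells, so it was higher in mixed cells of blood and not of lung. The part of undetected doublets was not tested.

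Lambda transcripts were present in most kappa-majority cells of lung and in nearly all of blood. At least 1 lambda UMI was found in 86.8% of kappa-majority cells of metastasis lung, 87.4% of sham lung, 98.2% of metastasis blood and 99.4% of sham blood. The mean was 4.82, 5.60, 10.3 and 14.7 lambda UMIs per kappa-majority cell. Of kappa-dominant cells, whose lambda share is limited by the typing rule, 67.1%, 69.9%, 88.2% and 94.0% had a lambda UMI. Gated T cells of the same libraries, with more UMIs per cell than the B cells, held 0.00944, 0.0404, 0.00714 and 0.0448 lambda UMIs per cell. Over all gated B cells the lambda count per cell was 671, 187, 1955 and 434 times that in T cells. These ratios include the lambda-dominant cells and would be lower for kappa-majority cells alone. Lambda UMIs made up 17.1% and 16.8% of the light chain UMIs of kappa-majority cells in lung (metastasis, then sham), and 24.6% and 25.3% in blood.

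Cells rich in Igkc with no lambda UMI were rare in blood. Among kappa-majority cells with at least 20 Igkc UMIs, 71 of 773 (9.18%) in metastasis lung and 186 of 2353 (7.90%) in sham lung had none. In blood these were 12 of 938 (1.28%) and 23 of 5790 (0.397%). The share without lambda fell with the Igkc count in lung: in sham lung it was 23.3% at 10 to 19 Igkc UMIs, 11.9% at 20 to 29, 6.48% at 30 to 39, 3.64% at 40 to 59 and 0.629% at 60 or more. The mean number of lambda UMIs went up over the same steps, from 2.61 to 14.3. More UMIs per cell also give more chances to see a lambda UMI, so these steps describe detection and level together.

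Lambda-dominant cells had little Igkc. Their median was 0 Igkc UMIs in all 4 libraries, and 20.6%, 29.7%, 16.5% and 24.5% of them had any Igkc UMI in metastasis lung, sham lung, metastasis blood and sham blood. Their Igkc level of 178 to 232 CPM is bounded by the rule that chose them. The mean lambda count was 30.8, 34.0, 46.7 and 57.5 UMIs per lambda-dominant cell. Kappa-dominant cells, chosen by the mirror rule, had 23.3, 26.2, 30.5 and 45.8 Igkc UMIs per cell.

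The V segments, which the typing rule did not use, were set beside the constant genes. Cells with at least 2 Igkv UMIs and no Iglv UMI numbered 63 in metastasis lung, 216 in sham lung, 109 in metastasis blood and 805 in sham blood. Of these cells 0%, 2.31%, 1.83% and 0.248% were lambda-dominant, where 0 of 63 cells allows up to 5.69%. A lambda constant UMI was nevertheless found in 87.3%, 92.1%, 100% and 99.5% of them, at a mean of 9, 10.1, 16.6 and 23.1 UMIs. Cells with at least 2 Iglv UMIs and no Igkv UMI were few, 3, 13, 8 and 65. Lambda held the majority of constant UMIs in 3 of 3, 10 of 13 (76.9%), 7 of 8 (87.5%) and 46 of 65 (70.8%), and 3, 8, 1 and 28 of these cells were lambda-dominant. With 1 Iglv UMI as the limit there were 45, 130, 71 and 402 such cells, and lambda held the majority in 42.2%, 46.9%, 62.0% and 46.5%. In sham blood these 65 cells had a mean of 57.1 lambda and 21.7 Igkc UMIs. Among the cells chosen by Igkv, lambda held the majority in 6.35%, 6.94%, 2.75% and 6.58%.

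The lambda transcripts in kappa-majority cells were of another makeup than those in lambda-dominant cells. In kappa-majority cells Iglc2 made up 49.2%, 49.8%, 47.7% and 49.5% of lambda UMIs in metastasis lung, sham lung, metastasis blood and sham blood. Iglc1 made up 25.6%, 23.9%, 24.9% and 22.3% and Iglc3 25.2%, 26.2%, 27.3% and 28.3%. In lambda-dominant cells Iglc1 led with 52.2%, 58.5%, 57.6% and 56.7%. Iglc2 was there at 37.2%, 33.1%, 31.7% and 33.6%, and Iglc3 at 10.7%, 8.41%, 10.7% and 9.69%. The ranges of the 4 libraries did not overlap between kappa-majority and lambda-dominant cells for any of the 3 genes. Which cells are lambda-dominant was set by the lambda sum, not by which gene supplied it.

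**Figure D2:**
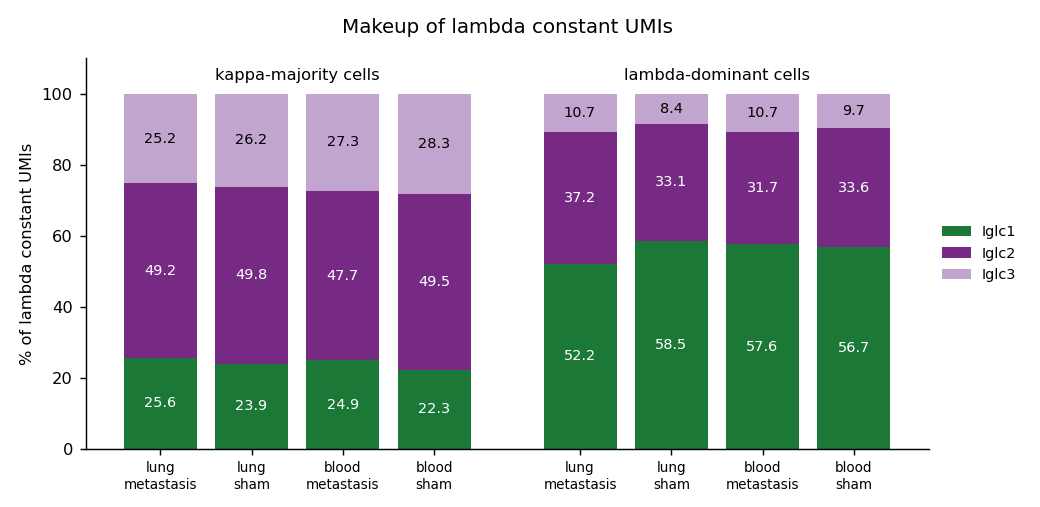
Stacked bars of the share of Iglc1, Iglc2 and Iglc3 in all lambda constant UMIs (y axis, percent) of kappa-majority and lambda-dominant B cells in each library (x axis). Iglc2 is the largest part in each kappa-majority bar and Iglc1 in each lambda-dominant bar.

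Single lambda-dominant cells carried UMIs of more than 1 lambda gene. Iglc1 was the most abundant of the 3 in 70 of 126 cells in metastasis lung, 175 of 269 in sham lung, 76 of 115 in metastasis blood and 295 of 445 in sham blood. Iglc2 was in front in 50, 81, 31 and 122 cells, and Iglc3 in 6, 13, 8 and 28. Iglc1 supplied at least 80% of the lambda UMIs in 31.0%, 39.4%, 33.9% and 24.5% of the lambda-dominant cells, and Iglc2 did so in 11.9%, 11.2%, 7.83% and 8.31%. No gene reached 80% in 56.3%, 47.2%, 57.4% and 66.7%. In the 616 cells led by Iglc1 over all libraries, Iglc1 made up 74.9% of lambda UMIs, Iglc2 19.7% and Iglc3 5.34%. In the 284 cells led by Iglc2, Iglc2 made up 68.2%, Iglc1 20.3% and Iglc3 11.4%.

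The lambda V segments differed with the leading constant gene. In cells led by Iglc1, 170 of 193 Iglv UMIs (88.1%, 82.7% to 92.3%) were Iglv1. In cells led by Iglc3, 16 of 18 (88.9%) were Iglv1. In cells led by Iglc2 only 26 of 73 (35.6%, 24.7% to 47.7%) were Iglv1, and the other 47 were 18 of Iglv2 and 29 of Iglv3. The UMIs of all 4 libraries were summed for these shares because a library alone held few: cells led by Iglc2 had 11 in metastasis lung, 24 in sham lung, 7 in metastasis blood and 31 in sham blood. Metastasis lung went the other way for Iglc2, with 10 Iglv1 UMIs and 1 of Iglv3. Of the 170 Iglv1 UMIs in cells led by Iglc1, 109 came from sham blood. UMIs of the same cell were counted as independent, so the intervals of these shares are too narrow.

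Between arms the light chain levels of B cells were close. The log2 ratio of metastasis over sham for Igkc was -0.05 (-0.07 to -0.03) in lung and -0.08 (-0.09 to -0.06) in blood. The lambda sum was higher by 0.06 (0.03 to 0.09) in lung and by 0.03 (0.01 to 0.05) in blood. Iglc1 had the largest difference among the 4 genes, at 0.10 (0.05 to 0.14) in lung and 0.20 (0.17 to 0.23) in blood. Iglc2 stood at 0.03 in lung and -0.06 in blood, and Iglc3 at 0.08 and -0.05. No member reached a 1.5-fold difference. For comparison, a 1.5-fold rise whose interval excluded equality was seen for 0.945% of 7197 measured genes in lung and 0.872% of 7336 in blood, and a fall of that size for 0.514% and 2.15%.

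The sign of the Igkc difference changed with the denominator in blood and not in lung. The median of all measured genes was -0.04 in lung and -0.13 in blood on the same scale, and relative to it Igkc was at -0.01 in lung and 0.05 in blood. Of the UMIs of gated B cells, haemoglobin made up 24.1% with metastasis and 21.6% in sham for lung, and 18.3% and 8.38% in metastasis and sham blood. Without haemoglobin in the denominator Igkc was at -0.0046 in lung and 0.09 in blood, Iglc2 at 0.11, Iglc3 at 0.11 and Iglc1 at 0.37 in blood. Iglc1 was higher with metastasis in both tissues under each of the 8 alternatives tried, from 0.02 to 0.17 in lung and from 0.20 to 0.39 in blood.

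A 1.5-fold difference between arms was rare among genes of the receptor around the light chain, as it was among all measured genes. Of the 18 B cell receptor partner genes, 0 reached it in lung and 1 in blood (Plcg2, a signalling phospholipase, at -0.64). Over all measured genes 0.945% rose and 0.514% fell that far in lung, and 0.872% and 2.15% in blood. Counts out of 18 genes cannot be told from such shares. In blood the median of the list was -0.15 against -0.13 over all measured genes. Ighm, the mu heavy chain, stood at -0.06 (-0.09 to -0.03) in lung and -0.21 (-0.24 to -0.19) in blood. Ighd, the delta heavy chain, stood at 0.08 and 0.06. Vpreb3, a chaperone-like relative of the surrogate light chain, was higher by 0.18 in lung and 0.20 in blood. The B cell stage list had 12 measured genes in each tissue. The single one past 1.5-fold was Apoe in blood, at 331 CPM with metastasis and 156 in sham (log2 ratio 1.08).

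Lambda-dominant B cells differed from kappa-dominant B cells in many genes outside the light chain loci. UMIs were summed over the cells of each type in each library, and the types were compared with edgeR's quasi-likelihood test with the library as a block, over 7500 genes without the 4 members. At a Benjamini-Hochberg adjusted p of 0.05 or less, 572 genes (7.63%) were higher in lambda-dominant cells and 665 (8.87%) were lower. Against all kappa-majority cells, a comparison added after the data were seen, 329 were higher and 379 lower. It used the same lambda-dominant cells, and its kappa side held all kappa-dominant cells. Of the 1237 calls of the first comparison 632 were called in the same direction, which is in part built in. The p-values rest on the spread of the difference over 4 libraries, which may share mice. The test moderates each gene's spread with that of all tested genes. Spread between mice is not known from them. Without the library block 204 were higher and 148 lower, without sham lung 318 and 409, and without sham blood 344 and 364.

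Of the 10 genes of the recombination and surrogate chain list 4 could be tested. Iglv1 and Iglv3 are parts of the lambda transcripts whose constant counts chose the cells, so their log2 ratios of 4.22 and 1.60 follow from the typing rule and are no result. The other two were Rag1 and Vpreb3, and both were higher in lambda-dominant cells. Rag1, a subunit of the recombinase that joins antibody gene segments, was at 50.3, 29.2, 17.8 and 12.8 CPM in lambda-dominant cells of metastasis lung, sham lung, metastasis blood and sham blood. In kappa-dominant cells it was at 1.39 and 0.223 CPM in lung and had no UMI in blood. These levels rest on 63 Rag1 UMIs in lambda-dominant and 3 in kappa-dominant cells of all libraries. The groups did not overlap, the fitted log2 ratio was 6.09 ± 0.51 (SE) and depends on the prior count, and edgeR's adjusted p was 7.85e-10. Rag2, its partner, had 1 UMI in each type and was not tested.

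Vpreb3 was at 752, 749, 817 and 775 CPM in lambda-dominant cells and 224, 203, 353 and 224 CPM in kappa-dominant cells. Its log2 ratio was 1.68 ± 0.09 (SE), with an edgeR adjusted p of 8.37e-14, and it was higher in 4 of 4 libraries. The other 6 genes of the list (Igll1, Vpreb1, Vpreb2, Rag2, Dntt and Iglv2) had too few UMIs for the test. Igll1 and Dntt, markers of progenitor B cells, had 0 UMIs in both types.

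Of the 12 testable genes of the B cell stage list, 4 rose and 5 fell in lambda-dominant cells. Over all 7500 genes 7.63% rose and 8.87% fell. Akap12, a kinase scaffold gene, was at 216 (metastasis) and 231 (sham) CPM in lambda-dominant cells of lung and at 91.8 and 94.6 CPM in blood. In kappa-dominant cells it was at 39.7, 47.3, 33.0 and 19.8 CPM, so the types did not overlap (log2 ratio 2.23 ± 0.13 SE). Ms4a1, which encodes CD20, rose by 0.92, Cd38 by 0.80 and Cd24a, high on immature B cells, by 0.67 on the log2 scale. Cd93, a marker of transitional B cells, had 57 UMIs in lambda-dominant and 33 in kappa-dominant cells and was not tested there.

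Apoe, Fcer2a, Cd83 and Cd86 were among the genes of the stage list that fell. Cd86, a costimulatory ligand, was at 100.7, 186, 53.3 and 83.6 CPM in lambda-dominant and at 411, 486, 157 and 177 CPM in kappa-dominant cells of metastasis lung, sham lung, metastasis blood and sham blood. The lambda-dominant value was the lower in each library, although the highest of them exceeded the lowest kappa-dominant value (log2 ratio -1.40 ± 0.11 SE). Cd83, an activation marker, fell by 1.05 and Fcer2a, the IgE receptor CD23 of follicular B cells, by 0.69. Apoe, a lipid carrier that other cells also express, fell by 1.13.

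In the receptor complex Ighm was higher and Ighd lower in lambda-dominant cells. Of 18 receptor partner genes 7 rose and 3 fell, where 7.63% of all 7500 genes rose and 8.87% fell. The list's median log2 ratio was 0.19 against -0.01 over all genes tested. Ighm was at 3920, 3741, 3589 and 3930 CPM in lambda-dominant cells and 1733, 1785, 1803 and 2114 CPM in kappa-dominant cells, with no overlap between the types and a log2 ratio of 1.02 ± 0.05 (SE). Cd79b, a signalling subunit of the receptor, rose by 1.03, Cd79a, its partner, by 0.34 and Cd72, an inhibitory co-receptor, by 1.16. Ighd fell by 0.53 and Cr2, the complement receptor CD21 of mature B cells, by 1.28. The switched heavy chain genes had too few UMIs: Ighg1 and Ighe had 0 in both types, and Igha had 14 in lambda-dominant and 27 in kappa-dominant cells.

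The rule of the 10 largest differences in each direction named no heavy chain gene and no B cell receptor partner. Above, behind Rag1, came Reln, the secreted protein reelin, with 156 UMIs in lambda-dominant and 32 in kappa-dominant cells (log2 ratio 4.37 ± 0.27 SE). Agbl1, a carboxypeptidase-like gene, was the most abundant of them, at 1197, 1081, 885 and 1117 CPM against 76.6, 92.7, 198 and 140 CPM (log2 ratio 3.19 ± 0.14 SE). Uchl1, Gm14964, Slc8a1, Atp1b1, Wfdc21 and Gh were also among them, with log2 ratios of 3.40, 3.19, 3.06, 3.02, 2.76 and 2.64. The 10 that were lowest in lambda-dominant cells were Gm20429, Chst10, Il9r, Gm30211, Rflnb, Rapgef4, Klf12, Gm47782, Ptk2 and Crisp3, from -2.56 for Gm20429 to -1.80 for Crisp3. Gm30211, an unnamed gene model, had the most UMIs of these, at 57.5, 45.8, 53.3 and 34.2 CPM in lambda-dominant and 185, 223, 211 and 185 CPM in kappa-dominant cells.

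**Figure D3:**
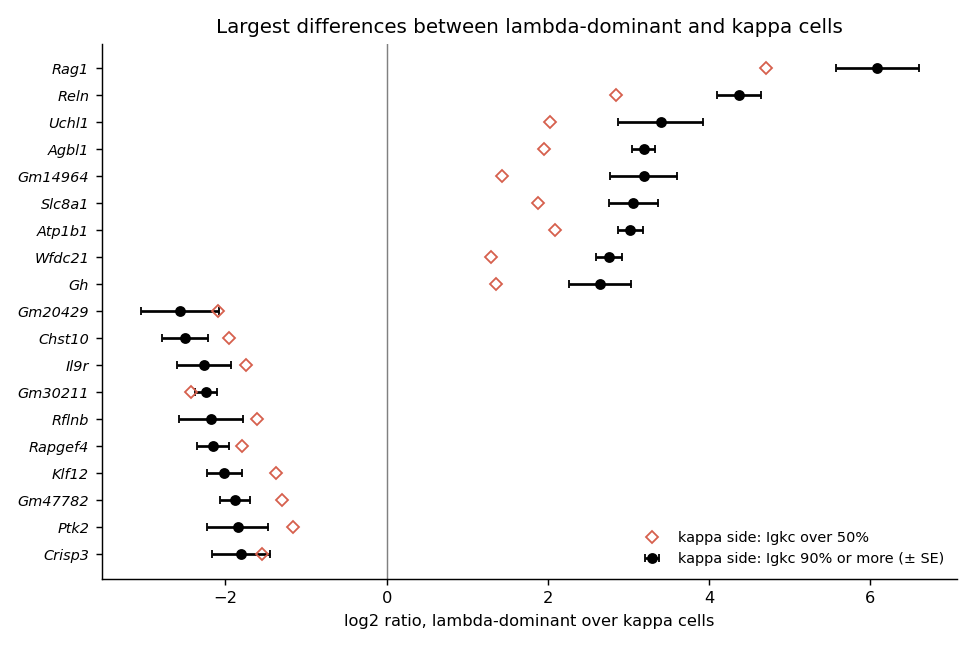
Log2 ratio (x axis) of lambda-dominant over kappa cells for the genes named from the 10 most raised and 10 most lowered (y axis); filled points with bars are the fit against kappa-dominant cells ± SE, open diamonds the fit against all kappa-majority cells. All diamonds lie on the same side of 0 as the points, and all but that of Gm30211 are closer to 0. The fits share the lambda-dominant and the kappa-dominant cells.

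The kappa-dominant cells were themselves a selected group of the kappa cells, and their choice moved the size of these ratios. Against all kappa-majority cells the log2 ratio was 4.70 for Rag1, 2.85 for Reln, 1.95 for Agbl1, 1.14 for Vpreb3 and 1.11 for Akap12. Ighm stood at 0.57 and Ighd at -0.41, and Cd86 at -1.01. Cd93 could be tested there and was higher by 1.29 ± 0.26 (SE), with an edgeR adjusted p of 0.000298. Cd38 stood at 0.34 with an edgeR adjusted p of 0.0513, so its call was lost. All 8 receptor partner calls of this comparison, 5 higher and 3 lower, had the direction of the first. The comparisons share the lambda-dominant and the kappa-dominant cells, so this is no independent check.

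Kappa cells with few lambda transcripts also differed from kappa cells with more. In this comparison, added after the data were seen, kappa-dominant cells were set against mixed cells with Igkc over 50%, over 9846 genes. By edgeR's test 633 genes (6.43%) were higher and 592 (6.01%) lower in kappa-dominant cells. Ighm was at a log2 ratio of -0.58 ± 0.04 (SE) and Cd79b at -0.58, Ms4a1 fell by 0.62 and Cd24a fell by 0.42. Vpreb3 fell by 0.71, Akap12 fell by 1.34, and Cd93 fell by 1.67 with 33 UMIs in kappa-dominant and 344 in mixed cells. Cd86 rose by 0.61, Cd83 by 0.48 and Apoe by 0.81.

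Of 18 receptor partner genes 2 (Cr2 and Ighd) rose and 9 fell in kappa-dominant cells. Over all genes tested 6.43% rose and 6.01% fell. The list's median was -0.17 against 0.003 over all genes. The Ighd call was not stable: its log2 ratio was 0.16 with an edgeR adjusted p of 0.0387, and 8 of 11 alternatives lost the call or, in 1 of them, turned the sign (-0.09 to 0.18). Of 16 testable stage genes 4 rose and 5 fell, beside the same 6.43% and 6.01% over all genes. The comparison shares the kappa-dominant cells with the one against lambda-dominant cells, so both rest in part on the same UMIs. Without sham lung 288 genes were higher and 232 lower, and without the library block 5 and 34. S100a8 and S100a9, abundant neutrophil transcripts, were among the 10 highest in kappa-dominant cells with log2 ratios of 1.12 and 1.06, from 110 and 173 UMIs there. The part of free RNA or attached cells in these was not tested.

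With no lambda UMI at all as the limit, 85 genes were higher and 112 lower among 7782 tested. This version set the cells with at least 20 Igkc UMIs and no lambda UMI against those with at least 1, and blood contributed only 12 and 23 cells without lambda. In cells without lambda the log2 ratio was -0.89 for Ighm, -0.90 for Cd79b, -0.93 for Ms4a1, -1.12 for Vpreb3 and -1.47 for Akap12, all past the test, and 0.89 for Cd86. Ighd stood on the other side of 0, at -0.09 with an edgeR adjusted p of 0.873 against 0.16 with the 90% limit.

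**Figure D4:**
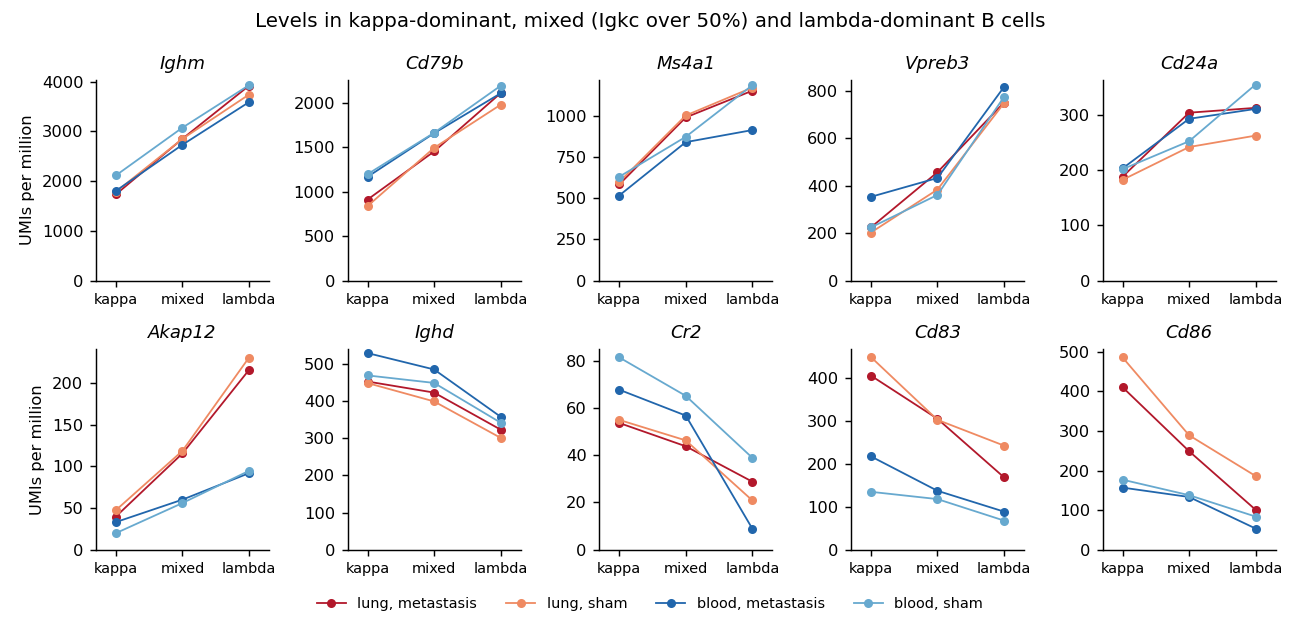
CPM (y axes, from 0) of 10 genes in kappa-dominant, mixed (Igkc over 50%) and lambda-dominant B cells (x axis), with 1 line per library. The level goes up from kappa-dominant to lambda-dominant cells for the first 6 genes and down for the last 4 in every library.

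Mixed cells lay between both other types for Ighm, Vpreb3, Akap12 and Rag1. Ighm was at 2851, 2850, 2731 and 3076 CPM in mixed cells with Igkc over 50%, in metastasis lung, sham lung, metastasis blood and sham blood. Vpreb3 was at 457, 384, 433 and 361.5 CPM and Akap12 at 116, 119, 60.02 and 55.9 CPM. Each of these 12 values fell between the value of kappa-dominant and that of lambda-dominant cells of the same library. Rag1 was at 1.75, 2.19, 0.546 and 0.504 CPM in mixed cells, from 4, 15, 2 and 14 UMIs, which also lay between the other types in each library. The kappa-dominant values rest on 2, 1, 0 and 0 UMIs, so the step from kappa-dominant to mixed cells is poorly measured.

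Light chain RNA was also found at a low level outside B cells. In gated T cells Igkc was at 10.8 CPM (8.50 to 13.5) in metastasis lung, 25.1 (23.0 to 27.3) in sham lung, 2.86 (1.15 to 5.90) in metastasis blood and 15.4 (13.4 to 17.7) in sham blood. Per cell the B cells held 459, 208, 2040 and 419 times as much Igkc as T cells. At least 1 Igkc UMI was found in 2.34%, 9.58%, 1.25% and 8.24% of T cells, at median depths of 2999, 3861, 3896 and 5582 UMIs, against 91.8%, 94.0%, 92.9% and 95.1% of B cells. Without T cells holding a B marker UMI, Igkc was at 6.46, 24.3, 2.98 and 14.4 CPM, so the value of metastasis lung fell by more than 1.5 times and the order of the libraries was kept. At 1000 UMIs per cell the shares in T cells were 0.807%, 3.42%, 0% (0 of 558 cells, which allows up to 0.659%) and 1.75%.

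**Figure D5:**
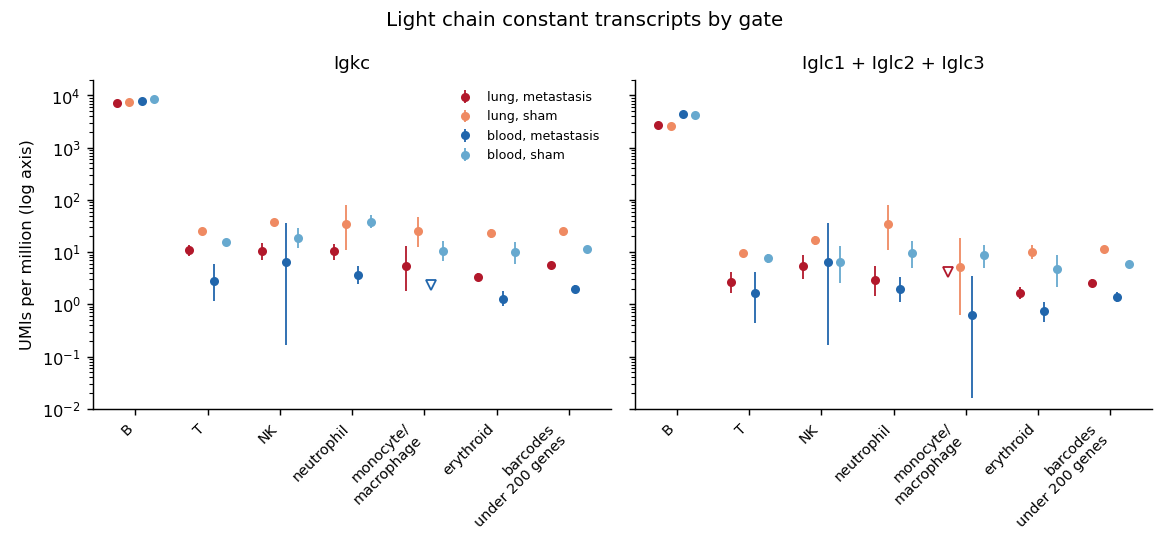
Igkc (left) and summed lambda (right) CPM on a log axis by gate (x axis), with 1 point per library and exact 95% counting intervals; open triangles are upper limits where no UMI was found. B cells lie above all other gates in each library, and the sham libraries lie above the metastasis libraries of the same tissue in T cells, erythroid cells and barcodes under 200 genes.

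The sham libraries had more free light chain RNA than the metastasis libraries of their tissue, and also more B cells. B cells were 35.6% of kept cells in sham lung and 16.9% in metastasis lung. Barcodes under 200 genes, which hold little cellular RNA besides haemoglobin, had Igkc at 5.71 CPM in metastasis lung, 25.2 in sham lung, 2.01 in metastasis blood and 11.6 in sham blood. Erythroid cells had 3.41, 23.0, 1.296 and 9.86 CPM. Igkc made up 80%, 72.6%, 63.6% and 67.1% of the light chain UMIs in T cells, and 73.2%, 74.7%, 64.6% and 66.3% in B cells. The B cell shares leave out the 3 cells of the plasma cell gate of sham lung (below), with 9425 light chain UMIs, nearly all Igkc. Adding them would raise the share there, where the T cell interval ends at 75.8%. Without them the B cell share lay within the counting interval of the T cell share in each library. It lay outside that of NK cells of sham lung (68.8%, 63.3% to 73.9%) and of neutrophils of sham blood (80.3%, 68.7% to 89.1%). These neutrophils had Igkc at 38.6 CPM (28.9 to 50.4). In barcodes under 200 genes the share was 68.7%, 68.6%, 59.0% and 66.2%, and in both lung libraries its interval lay below the B cell share.

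Gated endothelial or epithelial cells of sham lung, 94 in number, held 31 Igkc UMIs and no lambda UMI, so that Igkc was 100% (88.8% to 100%) of their light chain UMIs, against 74.7% in the library's B cells. Their Igkc level was 94.9 CPM (64.5 to 135). The UMIs were found in 10.6% of the cells, a share near that of T cells (9.58%) and erythroid cells (12.9%) of the library. Several UMIs thus sat in a few cells, and the intervals, which treat UMIs as independent, are too narrow. The matching gate of metastasis lung had 1 Igkc and 1 lambda UMI in 50 cells. A lambda count of 0 here allows up to 11.3 CPM.

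The plasma cell gate, for the antibody-secreting end stage of B cells, caught 8 cells in all. In sham lung its 3 cells had 365, 2123 and 6937 light chain UMIs, which were 16.3%, 21.5% and 38.1% of their UMIs and nearly all Igkc (363, 2105 and 6852). The 4 cells of metastasis lung had none and the 1 of metastasis blood had 1, so the name of the gate does not hold for them. These 3 cells held 9425 light chain UMIs, while all 4785 gated B cells of the library held 142935. Gated B cells held 86.3%, 82.4%, 94.9% and 88.4% of all light chain UMIs in metastasis lung, sham lung, metastasis blood and sham blood.

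The genes whose levels were most like the light chains were B cell genes. Over 26 combinations of library and gate with at least 50 cells, and among 7076 genes, log2 levels of Igkc correlated most with Cd79a (Pearson r 0.973), and highly with Ly6d (0.968), Pax5 (0.965) and Mzb1 (0.964). The lambda sum was most like Spib (0.969), Tnfrsf13c (0.968), Fcmr (0.967), Ly6d (0.966) and 2010309G21Rik (0.965). Cd79a, Ly6d, Pax5 and Fcmr are markers of the B cell gate, Mzb1 is a marker of the plasma gate, and the points share libraries, free RNA and depth, so the values are a description only.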

How the data were processed

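Single-cell RNA was sequenced from 4 libraries, 1 for each tissue and arm. The deposited tables hold UMI counts, not normalized, for each barcode. The submitters' processing notes name Seurat 4.3.0.1, Cell Ranger 7.0.0, the GRCm38.p6 build and R 4.3.1 without a role. No source used here states the chemistry. Totals were 112079231 to 132540945 UMIs per library.

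Kept barcodes had 200 or more genes and no more than 10% mitochondrial UMIs, and those with a Scrublet score of at least 0.3 were removed (scanpy 1.11.5, expected rate 10%). A cell was gated as B if at least 3 UMIs from at least 2 genes of the B marker list were present and that list held at least 75% of all marker UMIs of 9 lists. Erythroid cells were those with at least 50% haemoglobin UMIs and no list at 3 UMIs. These thresholds were set after the data were seen, and the members and lists were chosen with earlier results of these data known. Thinning drew 1000 UMIs outside haemoglobin per cell.

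Intervals are exact 95% Clopper-Pearson, Poisson or conditional binomial intervals and cover counting error only. Those on UMIs treat the UMIs of a cell as independent. Arms have 1 library each, so no test was made between them; a gene counted as measured there with at least 100 UMIs over both arms and a mean of at least 10 CPM. Types of B cells were compared on UMIs summed per library with edgeR 4.0.16 (quasi-likelihood, TMM, library as block; R 4.3.3), with Benjamini-Hochberg adjustment over all tested genes. The 4 members stayed in the library sizes and out of the tested genes. SEs are approximate, from the log2 ratio and the F statistic. The script was tested on simulated data. Genes named are the members, Iglv1 to Iglv3, Ighm, Ighd, Cd79a and Cd79b, up to 5 V segments, the fixed lists, and the 10 highest and 10 lowest log2 ratios among calls with 1 sign in all 4 libraries. Likeness used log2 CPM over library and gate combinations of at least 50 cells. Sequences were aligned with MAFFT 7.526. Alternatives were other dominance limits, depths, gates, scalings, filters, DESeq2 1.42.0, no block and leaving out each library. A few genes that these rules name are not reported here.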

Additional observations from a re-analysis of the deposited data

Results flagged for a closer look

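Iglc2 and Iglc3 stood on opposite sides of 0 in lung and blood when metastasis was compared with sham in gated B cells. The log2 ratio of Iglc2 was 0.0253 in lung and -0.0592 in blood, and that of Iglc3 was 0.0800 in lung and -0.0535 in blood. The counting interval of Iglc2 in lung included 0 (-0.02 to 0.07). The blood values changed sign with the denominator: with UMIs outside haemoglobin, with the wider exclusion of genes and relative to the median gene, Iglc2 in blood was at 0.107, 0.110 and 0.0689 and Iglc3 at 0.112, 0.116 and 0.0746, so that both tissues then had the same sign. The difference between tissues was not tested, since each ratio rests on 1 library per arm. How the counting treated reads that match both genes was not tested.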

How the results depend on the processing

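No paired analysis was possible because the groups share only replicate number 1 and each holds 1 library; types of B cells were compared with the library as a block. In the order metastasis lung, sham lung, metastasis blood and sham blood, the lambda-dominant share was 8.78%, 7.58% and, in sham blood, 6.89% at an 80% limit, 5.53% and 4.85% in the sham libraries at 95%, and 12.6%, 11.3%, 17.4% and 14.8% at 50%. The mixed share was 61.5% and 60.8% in lung at 20 light chain UMIs, 32.5%, 30.6%, 55.1% and 61.6% at 80%, 75.04%, 74.9%, 89.6% and 92.8% at 95%, and 75.5% and 78.2% in blood after thinning. With a leading gene at 60%, Iglc1 led 49.2%, 56.9%, 54.8% and 54.8% of lambda-dominant cells and Iglc2 led 28.6%, 23.0%, 20% and 20.4%.

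Log2 ratios between arms moved with the scale. With UMIs outside haemoglobin, UMIs outside haemoglobin, mitochondrial, ribosomal and immunoglobulin genes, and relative to the median gene, Igkc was at -0.00461, -0.00478 and -0.0110 in lung and 0.0899, 0.0932 and 0.0521 in blood. The lambda sum was then at 0.108, 0.108 and 0.101 in lung and 0.198, 0.201 and 0.160 in blood, Iglc2 in blood at 0.107, 0.110 and 0.0689, and Iglc3 in blood at 0.112, 0.116 and 0.0746. With 400 genes and 5% mitochondrial UMIs as limits, Igkc was at 0.0129 in lung and -0.0484 in blood, the lambda sum at 0.144 and 0.107, and in blood Iglc2 at 0.0222 and Iglc3 at 0.0139. Averaging CPM over cells gave 0.00173 and -0.0102 for Igkc, 0.139 and 0.0782 for the lambda sum, and 0.0256 for Iglc3 in blood. Without cells over 50% haemoglobin, Igkc was at 0.0356 and 0.107, the lambda sum at 0.135 and 0.219, and in blood Iglc2 at 0.123 and Iglc3 at 0.149. With doublets kept, Igkc was at -0.103 and the lambda sum at -0.0136 in lung. Igkc in T cells was 6.46 CPM in metastasis lung without cells holding a B marker UMI, and 29.1 in sham lung outside haemoglobin. The cause was not tested in any of these.

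Lambda-dominant against kappa-dominant cells gave 271 higher and 314 lower genes with DESeq2, 204 and 148 with no library block, and 329 and 379 against all kappa-majority cells. Leaving out 1 library gave 318 to 531 higher and 364 to 612 lower. Of 296 values of its named genes under alternatives, 291 kept direction and call and 5 lost the call. Kappa-dominant against mixed cells gave 278 and 205 with DESeq2, 5 and 34 with no block, 85 and 112 for cells without lambda, and 288 to 667 and 232 to 641 with 1 library left out. There Ighd went to -0.0903 for cells without lambda, and 42 of 249 values of named genes lost the call. All alternatives on haemoglobin-rich cells, the 50% limit and the second comparison were chosen after seeing the data. Depth limits the V segments and Rag1, which rest on few UMIs.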
